A study of Mus musculus with 33 samples.

Results

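The genes described here are those of the mouse Hoxd cluster, selected by symbol as Hoxd1, Hoxd3, Hoxd4, Hoxd8, Hoxd9, Hoxd10, Hoxd11, Hoxd12 and Hoxd13. Of these 9 genes, 8 had a row in the table of 17120 genes, and Hoxd4 was not analysed here. Their RNA was followed by RNA sequencing in mouse embryonic stem cell cultures carrying a reporter for Scx, a tendon transcription factor. The starting population was paraxial mesoderm (PM), the tissue that forms the somites, collected at culture day 6. It was made by forming embryoid bodies with a BMP inhibitor and then adding the Wnt agonist CHIR with the BMP inhibitor kept on. The methods also describe PM made with AGN 193109 or all-trans retinoic acid in that second phase, and which medium the PM of these libraries had is not stated. The part of such earlier exposure in the changes against PM was not tested. The PM cells were then plated as a monolayer with TGFβ1, the hedgehog agonist SAG and FGF2, which all later groups received, plus 1 of 2 ligands: CD1530, an agonist of retinoic acid receptor gamma, or AGN 193109 (AGN), which holds the receptors for retinoic acid in their repressive state as an inverse agonist. Monolayers were collected after 0.25 and 0.75 days (named D6.25 and D6.75), after 1.5 and 2.5 days (D7.5 and D8.5) and after 4 days (D10). With PM this gave 11 groups of 3 replicates. The methods call the replicates biological, but which reporter line gave each library is not stated, and whether they came from separate differentiations is not stated either, so p-values measure the spread between these samples.

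Hox genes encode homeodomain transcription factors that give cells of the trunk and limbs their position along an axis. Within a mammalian cluster the genes lie in a fixed order: those at the 3′ end have the lowest paralog numbers and are used early and anteriorly in the embryo, whereas those at the 5′ end have the highest numbers and are used later and posteriorly. This relation is called collinearity. Genes near the 3′ end of the clusters are known to respond to retinoic acid, and the posterior Hoxd genes are also used in the developing limb and the genital bud.

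On GRCm38 (GENCODE M21) the cluster lay on the plus strand of chromosome 2, from the start of Hoxd13 at 74668310 to the end of Hoxd1 at 74765142, a span of 96.8 kb. Going from the 5′ to the 3′ end, the genes occupied 74668310-74671599 (Hoxd13), 74675013-74677705 (Hoxd12), 74679557-74687016 (Hoxd11), 74691924-74695105 (Hoxd10), 74697727-74700208 (Hoxd9), 74704615-74707933 (Hoxd8), 74711927-74748442 (Hoxd3) and 74762980-74765142 (Hoxd1). All 8 are protein coding. The exons of Hoxd3 shared 62.3% of their bases with same-strand exons of Hoxd4 or Gm28230 and 8.78% with the antisense transcripts Hoxd3os1 and Haglr. Hoxd11 shared 10.8% and Hoxd10 5.73% of exon bases with Gm28309. The other 5 genes shared none with another annotated gene. How reads in shared exons were counted, and with which strand setting, is not stated, so the level of Hoxd3 carries that uncertainty in every group.

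The sequence just upstream of an annotated start is described here as a promoter, although counts per gene do not tell which start was used. RefSeq gives promoter windows (250 bases before to 50 after a start, GRCm38.p6) for all 9 Hoxd genes, 10 windows in all because Hoxd11 has 2 starts. They were searched on both strands for the half-sites that retinoic acid receptors bind, AGGTCA and its variants AGTTCA as well as GGGTCA or also GGTTCA. A half-site was present in 5 of the 10 Hoxd windows (Hoxd3, Hoxd4, Hoxd8, Hoxd10 and Hoxd13) and in 43.7% of all 32851 windows searched. Direct repeats of 2 half-sites spaced by 1, 2 or 5 bases were in none of the Hoxd windows and in 0.222%, 0.268% and 0.097% of all windows. The upstream parts are printed for 4 genes with different time courses, 2 that rose and stayed above PM from early (Hoxd3, Hoxd12), 1 that rose briefly (Hoxd11) and 1 that rose late (Hoxd8). Capitals mark half-sites, and TGACCT is AGGTCA read on the other strand. The sequences run 5′ to 3′ on the plus strand, and for Hoxd11 the window of its 5′ start is shown.
Hoxd3, chr2:74711743-74711926: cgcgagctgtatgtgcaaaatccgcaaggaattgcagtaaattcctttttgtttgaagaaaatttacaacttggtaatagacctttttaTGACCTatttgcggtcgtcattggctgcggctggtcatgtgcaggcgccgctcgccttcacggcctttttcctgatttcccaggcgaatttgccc
Hoxd8, chr2:74704365-74704614: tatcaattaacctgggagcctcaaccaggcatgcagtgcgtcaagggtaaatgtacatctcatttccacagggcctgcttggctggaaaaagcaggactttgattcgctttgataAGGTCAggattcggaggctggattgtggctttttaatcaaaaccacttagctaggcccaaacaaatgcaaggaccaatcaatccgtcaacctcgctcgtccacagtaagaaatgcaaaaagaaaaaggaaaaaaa
Hoxd11, chr2:74679308-74679556: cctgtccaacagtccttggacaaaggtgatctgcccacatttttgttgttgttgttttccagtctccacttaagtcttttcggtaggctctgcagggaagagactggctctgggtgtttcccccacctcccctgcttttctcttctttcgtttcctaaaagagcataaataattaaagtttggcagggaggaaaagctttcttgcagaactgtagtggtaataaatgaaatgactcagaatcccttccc
Hoxd12, chr2:74674763-74675012: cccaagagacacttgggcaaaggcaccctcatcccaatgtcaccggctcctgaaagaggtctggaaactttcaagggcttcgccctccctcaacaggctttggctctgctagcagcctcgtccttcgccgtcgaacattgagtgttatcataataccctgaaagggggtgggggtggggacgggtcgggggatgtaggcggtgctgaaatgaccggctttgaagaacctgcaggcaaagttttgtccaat
Hoxd3 and Hoxd8 thus each had 1 half-site in the stretch shown, and Hoxd11 and Hoxd12 had none. A match is a description of the letters and not of binding.

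Library totals ran from 17.1 M to 22.8 M counts, except for AGN at D8.5 replicate 1 with 38.1 M. The PM libraries held the paraxial mesoderm genes Tbx6 at 9.56 ± 0.772 CPM (mean ± SD, n = 3) and Msgn1 at 3.38 ± 0.607, beside the tail bud gene T at 79.0 ± 4.01 and Sox2, a gene of neural and pluripotent cells, at 536 ± 6.44. The summed level of 6 tail bud markers was 139 to 151 CPM in PM and had dropped to 73.5-80.8 in CD1530 and 86.9-89.1 in AGN by D6.25. At D10 it was 1.77-2.59 in CD1530, with Cdx4 at 0 in every library, and 34.7-35.0 in AGN, of which T made up most. In AGN at D10, Cdx2, Cdx4 and Wnt3a each had at most 3 counts in every library. Between ligands at D10, 2 of the 6 markers were called higher in CD1530 and 4 lower (edgeR adjusted p under 0.05). Of all genes, 46.6% were called there. For 7 somite and tendon markers the sum was 38.2-42.2 CPM in PM, and at D10 it was 941-977 with CD1530 and 1302-1361 with AGN. For 8 neural markers it was 586-601 in PM, of which Sox2 made up most, and 156-168 and 70.5-70.9 at D10. Single neural markers went both ways against PM. In CD1530 at D10, 6 of 8 were called higher and 2 lower (43.3% and 39.9% of all genes). In AGN at D10, 3 were called higher and 4 lower (41.6% and 40.4% of all genes). The D10 ranges were 84.3-88.5 and 162-174 for 6 lateral plate and limb markers, and 50.5-53.0 and 13.2-13.8 for 5 intermediate mesoderm markers. The part of these populations in the Hoxd levels was not tested, and in such bulk samples fewer expressing cells and less RNA per cell cannot be told apart.

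All levels below are CPM, counts scaled to 1 M per library after TMM normalization, and changes are log2 fold changes ± SE from an edgeR quasi-likelihood fit over all genes, called at an adjusted p under 0.05. Hoxd11 and Hoxd12, at the 5′ side, rose within 0.25 days of plating, after which Hoxd11 fell below PM while Hoxd12 stayed above it. Hoxd3 rose by D6.25 and had its highest mean at D7.5, and Hoxd8 and Hoxd1 rose later, up to D10. Hoxd9 fell at D6.25 and remained below PM. Hoxd10 was called lower than PM at D7.5 and D8.5 in CD1530, and Hoxd13 was called higher in 2 groups on calls that single libraries decided.

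**Figure D1:**
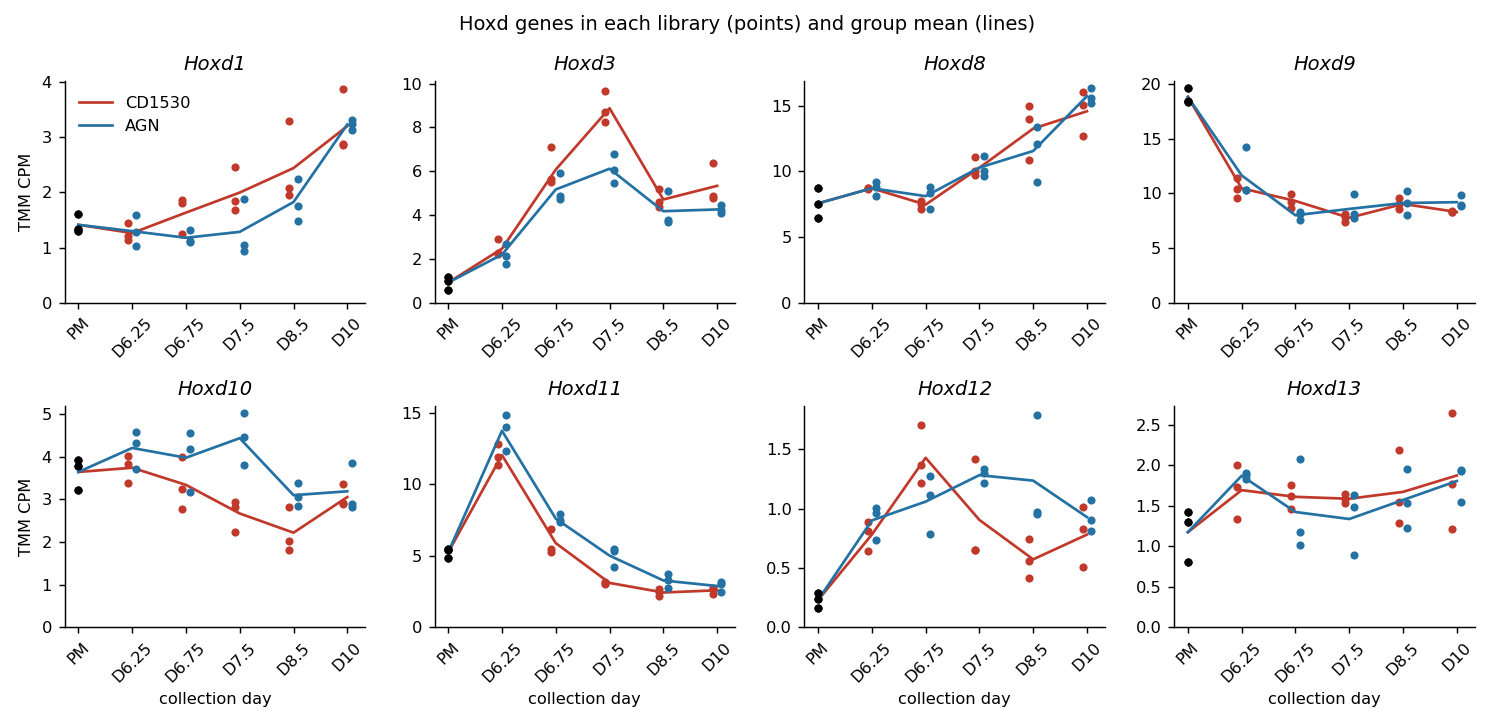
TMM-scaled CPM (vertical axes, starting at 0) of the 8 Hoxd genes in PM and at the 5 collection days (horizontal axes, evenly spaced); points are libraries, black for PM, red for CD1530 and blue for AGN, and lines join group means. Hoxd11 has its highest points at D6.25 (11.4 to 14.9 CPM), Hoxd3 at D7.5 and Hoxd8 and Hoxd1 at D10, and Hoxd9 is highest in PM (18.4 to 19.7 CPM).

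Hoxd11, which with its paralogs patterns the forearm and the posterior vertebrae, had 5.41, 4.82 and 5.49 CPM in PM. At D6.25 it had 12.8, 11.4 and 11.9 CPM in CD1530 and 14.9, 14.0 and 12.4 in AGN. All 6 monolayer libraries lay above the 3 PM libraries, a rise of 1.20 ± 0.11 in CD1530 (edgeR adjusted p 2.33e-12) and 1.39 ± 0.11 in AGN (edgeR adjusted p 2.48e-14). The peak was brief. At D6.75 the values were 5.27, 5.50 and 6.87 in CD1530, overlapping PM, and 7.93, 7.48 and 7.37 in AGN, still above it. By D10 Hoxd11 had 2.73, 2.31 and 2.7 CPM in CD1530 and 3.19, 3.01 and 2.44 in AGN, all below PM, a fall of -1.02 ± 0.15 and -0.86 ± 0.15 (edgeR adjusted p 5.19e-08 and 1.55e-06). The highest group mean of Hoxd11 was 5.67 times the lowest. In the order of its 11 group means, 3 of the 10 neighbouring pairs had libraries that did not overlap: those setting D6.25 apart from AGN at D6.75, that group from CD1530 at D6.75, and AGN at D7.5 from AGN at D8.5.

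Hoxd12, a posterior gene of the distal limb and the least counted of the 8, had 6, 5 and 3 counts in the PM libraries, or 0.287, 0.236 and 0.162 CPM. At D6.25 it had 0.643, 0.889 and 0.810 CPM in CD1530 and 1.01, 0.732 and 0.962 in AGN, so that no library overlapped PM. The rise was 1.74 ± 0.43 in CD1530 (edgeR adjusted p 0.000514) and 1.94 ± 0.42 in AGN (edgeR adjusted p 0.000105). Hoxd12 was called higher than PM at all 5 time points with either ligand, although the call for CD1530 at D8.5 was lost without CD1530 replicate 2 (edgeR adjusted p 0.0806). The highest mean was 1.43 ± 0.252 CPM in CD1530, at D6.75, and 1.28 ± 0.0623 in AGN, at D7.5. Over the 10 neighbouring pairs in the order of group means only the lowest pair, CD1530 at D8.5 and PM, did not overlap.

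Hoxd3, an anterior gene needed for the first cervical vertebra, rose the most of the 8. It had 1.15, 0.992 and 0.592 CPM in PM, 2.23, 2.89 and 2.26 in CD1530 at D6.25 and 2.10, 2.68 and 1.78 in AGN at D6.25. At D7.5 it reached 8.71, 8.25 and 9.66 CPM in CD1530 and 6.06, 6.79 and 5.48 in AGN. No monolayer library from D6.25 on overlapped PM, and the rise at D7.5 was 3.26 ± 0.19 in CD1530 (edgeR adjusted p 1.07e-18) and 2.72 ± 0.20 in AGN (edgeR adjusted p 2.76e-15). Means were lower at D8.5, 4.71 ± 0.431 CPM in CD1530 and 4.17 ± 0.803 in AGN, and at D10 the rise against PM was 2.53 ± 0.21 and 2.20 ± 0.22. Hoxd3 stood above PM at all 5 time points with either ligand.

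Haglr, a noncoding RNA on the minus strand whose start lies 84 bases from that of Hoxd1, had a time course like that of Hoxd3. Over the 11 group means of log2(CPM + 1), its Pearson correlation with Hoxd3 was 0.957, behind Plcd1 (0.973) and Gpr149 (0.962) and ahead of all other genes of 7828 that passed a limit on level and range. Haglr had 1.63, 1.46 and 1.18 CPM in PM, 6.48, 6.58 and 5.89 in CD1530 at D7.5 and 4.25, 4.32 and 4.49 in AGN at D7.5. The points share their libraries. Haglr and Hoxd3 overlap on opposite strands only at 74748422-74748442, so only reads reaching those bases could have been assigned to the other gene. Hoxd3os1, the antisense transcript across the first exons of Hoxd3, had group means of 0.334 to 0.908 CPM and was not called between ligands at D7.5 (0.13 ± 0.42) or D10 (0.25 ± 0.50).

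Hoxd8, a trunk gene from the middle of the cluster, had 7.51, 8.74 and 6.41 CPM in PM and 8.71, 8.76 and 8.65 in CD1530 at D6.25. It was first called at D7.5, with a rise of 0.44 ± 0.12 in CD1530 (edgeR adjusted p 0.00191) and 0.44 ± 0.13 in AGN (edgeR adjusted p 0.00197). At D10 it had 12.7, 15.0 and 16.0 CPM in CD1530 and 16.4, 15.6 and 15.2 in AGN, every library above PM. The rise against PM was then 0.94 ± 0.12 and 1.05 ± 0.12.

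Hoxd1, at the 3′ end, followed Hoxd8. It had 1.34, 1.61 and 1.29 CPM in PM and 1.14, 1.20 and 1.45 in CD1530 at D6.25, an overlap. At D10 there were 2.88, 2.86 and 3.88 CPM in CD1530 and 3.25, 3.13 and 3.33 in AGN, above PM by 1.17 ± 0.23 (edgeR adjusted p 1.73e-05) and 1.19 ± 0.24 (edgeR adjusted p 1.82e-05). With CD1530 it was called from D8.5 (0.78 ± 0.25, edgeR adjusted p 0.00434), a call lost without CD1530 replicate 3 at D8.5 (edgeR adjusted p 0.0836). With AGN it was called at D10 only. The last step, D10 against D8.5, was called for Hoxd1 (0.86 ± 0.22) and Hoxd8 (0.42 ± 0.11) in AGN, with edgeR adjusted p-values of 0.000902 and 0.00125. It was called for neither in CD1530 (0.40 ± 0.22 and 0.13 ± 0.11), and the difference between these steps was not tested on its own.

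Hoxd9, which acts in the proximal limb and the trunk, had the highest level per length of the 8 genes in PM. It had 18.5, 19.7 and 18.4 CPM in PM. At D6.25 it had 9.55, 10.5 and 11.4 CPM in CD1530 and 10.3, 10.3 and 14.3 in AGN, all below PM, a fall of -0.85 ± 0.10 (edgeR adjusted p 7.03e-10) and -0.70 ± 0.10 (edgeR adjusted p 5.35e-08). It was called lower than PM in all 10 monolayer groups, and at D10 had 8.28, 8.26 and 8.38 CPM in CD1530 and 8.82, 9.88 and 8.91 in AGN. PM was the only group set apart in the order of its means.

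Hoxd10, which contributes to hindlimb motor neurons and the limb skeleton, stayed between group means of 2.22 and 4.43 CPM. It was not called above PM in any group. Altogether 2 calls below PM were made in CD1530, at D7.5 (-0.45 ± 0.18) and D8.5 (-0.72 ± 0.19, edgeR adjusted p 0.000767). The call at D7.5, with an edgeR adjusted p of 0.0227, was lost without PM replicate 1 (0.0619), PM replicate 3 (0.0766) or CD1530 replicate 2 (0.129). In CD1530, Hoxd10 had 2.01, 1.81 and 2.83 CPM at D8.5 and 2.88, 3.36 and 2.92 at D10, a rise of 0.47 ± 0.20 (edgeR adjusted p 0.0403). That call was lost without CD1530 replicate 1 (0.123) or 2 (0.193) at D8.5, or replicate 2 (0.132) or 3 (0.0542) at D10.

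Hoxd13, the gene at the 5′ end and a regulator of the digits, stayed between means of 1.17 ± 0.322 CPM in PM and 1.87 ± 0.721 in CD1530 at D10. It passed the threshold in AGN at D6.25 (0.66 ± 0.28, edgeR adjusted p 0.0350), where it had 1.88, 1.90 and 1.83 CPM against 1.29, 1.42 and 0.808 in PM, and in CD1530 at D10 (0.65 ± 0.28, edgeR adjusted p 0.0348), where it had 1.21, 1.76 and 2.64 CPM and overlapped PM. Without PM replicate 3 the edgeR adjusted p was 0.173 for the first and 0.166 for the second. The first was also lost without AGN replicate 1, 2 or 3 (0.066, 0.0685 and 0.0567) and the second without CD1530 replicate 3 (0.346). None of the neighbouring pairs in the order of group means of Hoxd13, Hoxd10 and Hoxd1 was free of overlap.

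Counted over the cluster, CD1530 at D6.25 had 4 of 8 genes called against PM, 3 higher and 1 lower, where 67.8% of all 17120 genes were called, 34.5% higher and 33.3% lower. AGN at D6.25 had 5 of 8, 4 higher and 1 lower, where 68.1% of all genes were called, 35.0% higher and 33.1% lower. At D6.75 CD1530 had 3 of 8 (71.9% of all genes) and AGN 4 of 8 (73.5%). The counts were 6 of 8 (74.1%) and 4 of 8 (71.5%) at D7.5, and 7 of 8 (77.4%) and 5 of 8 (76.0%) at D8.5. At D10 CD1530 had 7 of 8, 5 higher and 2 lower, where 83.2% of all genes were called, 43.3% higher and 39.9% lower. AGN at D10 had 6 of 8, 4 higher and 2 lower, where 82.0% of all genes were called, 41.6% higher and 40.4% lower. The 10 comparisons share the PM libraries. None of these totals exceeded the background share of 8 genes by as much as 1 gene, and 7 of the 10 fell short of it. Between D8.5 and D10, 1 of 8 Hoxd genes was called in CD1530 (57.3% of all genes) and 2 of 8 in AGN (59.4%).

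**Figure D2:**
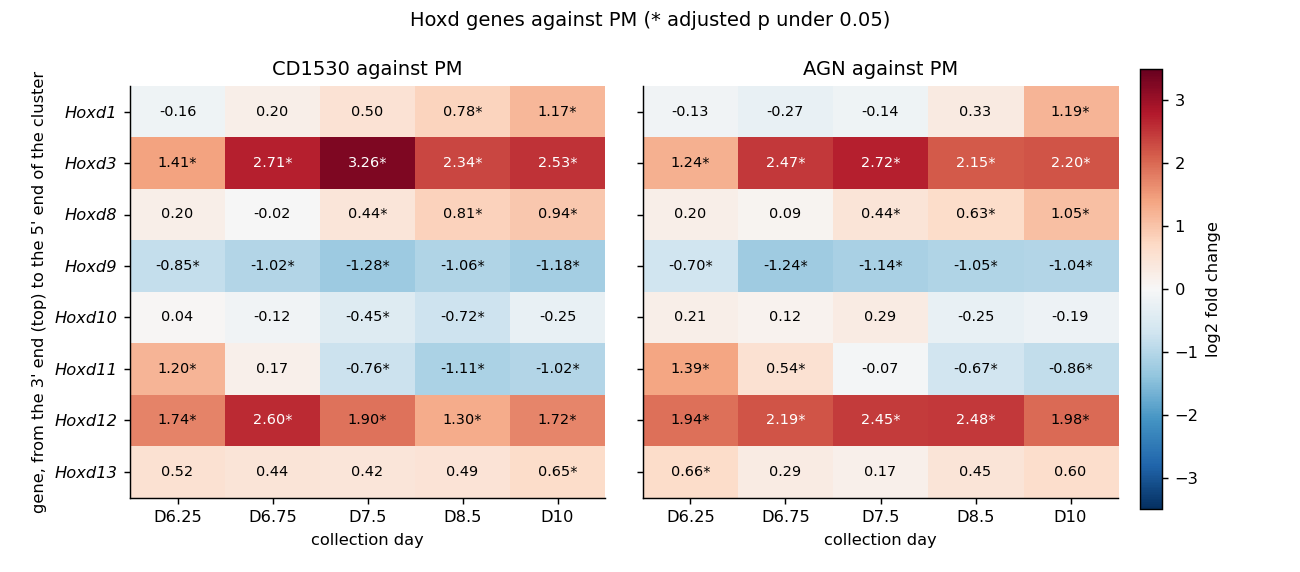
Log2 fold change against PM (colour and printed value) of each Hoxd gene, in rows from the 3′ end (Hoxd1, top) to the 5′ end (Hoxd13), at each collection day, for CD1530 (left) and AGN (right); asterisks mark an edgeR adjusted p under 0.05. Hoxd3 and Hoxd12 are above PM in every column, Hoxd9 is below PM in every column, and Hoxd11 turns from above to below.

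The order of onset along the cluster was read in several ways, without a test. By level, with onset set at 1 CPM in all 3 libraries, Hoxd1, Hoxd8, Hoxd9, Hoxd10 and Hoxd11 were already on in PM. Hoxd3 and Hoxd13 followed at D6.25 with both ligands, and Hoxd12 at D6.75 in CD1530 and D7.5 in AGN. The place of Hoxd13 hung on replicate 3: its PM mean was already 1.17 CPM, and without that replicate it was on in PM. Hoxd12 in AGN then came at D6.75. With the level set at 0.5 CPM 7 genes were on in PM, and with 2 CPM 4 were. Hoxd12 and Hoxd13 never reached 2 CPM in all libraries of a group. By the first call above PM, Hoxd3, Hoxd11 and Hoxd12 came at D6.25, Hoxd8 at D7.5 and Hoxd1 at D8.5 in CD1530 or D10 in AGN. Hoxd13 came at D10 in CD1530 and D6.25 in AGN, on the calls that single libraries decided, and Hoxd9 and Hoxd10 were never called above PM.

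For the 5 genes called above PM with each ligand on at least 1 call that no single library decided, the midpoint of the climb from PM to the highest mean was read by linear interpolation between time points. In CD1530 it lay at 0.125 days after plating for Hoxd11, 0.287 for Hoxd12, 0.587 for Hoxd3, 1.77 for Hoxd8 and 2.20 for Hoxd1. In AGN it lay at 0.125, 0.196, 0.472, 2.53 and 3.03 days in the same order of genes. The order Hoxd11, Hoxd12, Hoxd3, Hoxd8, Hoxd1 was thus the same with both ligands. The order was also kept with each replicate number left out and with scaling by library size only. It was seen only after the values were known and was not tested, and it is not the order of the genes on the chromosome in either direction: Hoxd11 and Hoxd12 came before Hoxd3, Hoxd8 and Hoxd1, and among the latter the gene at the 3′ end came last. The value and the first place of Hoxd11 are set by the sampling, since its highest mean came at the first collection after PM. While its peak stayed there, leaving out replicates or changing the scaling could not move it from that place.

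Because a longer gene collects more reads, levels of different genes were set side by side here per kilobase of exon. The onset level of 1 CPM used above was not scaled by length. In PM, Hoxd9 had 8.83 CPM per kb, followed by Hoxd8 with 2.75, Hoxd10 with 2.01 and Hoxd11 with 1.24. At D6.25 Hoxd11 had reached 2.86 in CD1530 and 3.26 in AGN, close to Hoxd8 (3.17 in each). At D10 Hoxd8 led with 5.31 ± 0.625 CPM per kb in CD1530 and 5.73 ± 0.218 in AGN, ahead of Hoxd9 with 3.89 ± 0.0295 and 4.31 ± 0.275. As a share of the summed level per kb of the 8 genes, Hoxd9 held 53.9% in PM and, at D10, 25.0% with CD1530 or 26.4% with AGN, and Hoxd8 held 16.8% and then 34.2% or 35.1%. Hoxd11 held 7.60% in PM, 18.8% and 19.7% at D6.25, and 3.94% and 4.19% at D10. The gene with the highest level per length was thus Hoxd9 in PM and Hoxd8 at D10 with the agonist and with the inverse agonist. The share of Hoxd3, 15.4% in CD1530 at D7.5, is uncertain for the shared exons given above.

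The comparison of CD1530 with AGN asks whether the cluster differed between the agonist and the inverse agonist. No group after PM was without a ligand, so the effect of either ligand on its own cannot be told from it. At D6.25, edgeR called 0 of 8 Hoxd genes, with 0 at an unadjusted p under 0.05 and 0 by DESeq2, where 1.92% of all genes were called. The differences ran from -0.20 to 0.17. At D6.75 it called 1 of 8 (18.0% of all genes), at D7.5 3 of 8 (26.9%) and at D8.5 3 of 8 (40.0%). At D10 it called 0 of 8, with 1 at an unadjusted p under 0.05 (Hoxd3) and 0 by DESeq2, where 46.6% of all genes were called. Of the 40 tests over 8 genes and 5 time points, 7 passed, 6 of them lower in CD1530 and all 6 in Hoxd10, Hoxd11 or Hoxd12. The summed level of the 6 tail bud markers was also lower in CD1530, 9.78 to 11 against 19.3-21.0 CPM at D7.5 and 5.36-6.96 against 11.1-11.8 at D8.5. At D10, where 0 of 8 Hoxd genes were called, the gap in this sum was wider, 1.77-2.59 against 34.7-35.0 CPM. Single tail bud markers went both ways. At D7.5, 1 was called higher and 3 lower in CD1530, and at D8.5, 2 were called higher and 1 lower. All genes were called at 26.9% and 40.0%. The part of these markers in the Hoxd differences was not tested.

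Hoxd11 had the most time points called. It was lower in CD1530 at D6.75 (-0.37 ± 0.12, edgeR adjusted p 0.0208), at D7.5 (-0.69 ± 0.14, edgeR adjusted p 0.000165) and at D8.5 (-0.44 ± 0.16, edgeR adjusted p 0.0250). At D7.5 the libraries had 3.16, 3.01 and 3.12 CPM in CD1530 and 5.46, 4.23 and 5.33 in AGN. The ligands did not overlap at these 3 time points, and CD1530 had the lower mean at D6.25 and D10 as well, where the test was not passed. The call at D7.5 was kept with each of its 6 libraries left out in turn. The call at D6.75 was lost without CD1530 replicate 1 (edgeR adjusted p 0.116), CD1530 replicate 2 (0.0754) or AGN replicate 1 (0.0901). That at D8.5 was lost without CD1530 replicate 1 (0.111) or 2 (0.057) or AGN replicate 1 (0.0777) or 2 (0.1).

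Hoxd10 was lower in CD1530 at D7.5, with 2.83, 2.22 and 2.95 CPM against 3.80, 4.46 and 5.04 in AGN, a difference of -0.74 ± 0.17 (edgeR adjusted p 0.000891) without overlap. This call was also kept with each library left out. At D8.5 the values were 2.01, 1.81 and 2.83 CPM against 2.84, 3.06 and 3.39, with a narrow gap between the ligands. The difference was -0.47 ± 0.19 (edgeR adjusted p 0.0435), lost without CD1530 replicate 1 (0.140) or 2 (0.220), AGN replicate 2 (0.0718) or 3 (0.125).

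Hoxd12 was lower in CD1530 at D8.5, with 10, 14 and 7 counts (0.558, 0.745 and 0.413 CPM) against 66, 19 and 18 counts (1.79, 0.968 and 0.953 CPM) in AGN. The difference was -1.18 ± 0.33 (edgeR adjusted p 0.00327). The highest value belonged to AGN replicate 1, the library with 38.1 M counts, and without it the difference was -0.73 with an edgeR adjusted p of 0.129. At D6.75 the means lay the other way, 1.43 ± 0.252 CPM in CD1530 and 1.06 ± 0.253 in AGN, with overlap (0.41 ± 0.28, edgeR adjusted p 0.351).

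Hoxd3 was the 1 gene called higher in CD1530, at D7.5, from the values given above. The difference was 0.54 ± 0.14 (edgeR adjusted p 0.00231), there was no overlap, and the call was kept with each library left out. Haglr differed by nearly the same amount at D7.5, 0.53 ± 0.15 (edgeR adjusted p 0.00544). At D10 Hoxd3 had 6.36, 4.84 and 4.78 CPM in CD1530 and 4.44, 4.09 and 4.22 in AGN, which did not overlap, but the difference of 0.33 ± 0.16 missed the threshold (edgeR adjusted p 0.0943).

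Hoxd1, the gene nearest the 3′ end, was not called at any time point. It came closest at D7.5, with 1.85, 2.46 and 1.69 CPM in CD1530 and 1.05, 0.930 and 1.88 in AGN, an overlap in 1 AGN library (0.64 ± 0.25, edgeR adjusted p 0.0566). At D10 the 95% interval of its difference was -0.44 to 0.41. For Hoxd8 and Hoxd9 the D10 intervals were -0.34 to 0.11 and -0.39 to 0.09, and for Hoxd13 the interval was -0.51 to 0.60. These intervals do not show that the ligands acted alike. They reached no further than 0.60 in size in these genes at D10, and as 95% intervals they do not exclude a larger difference. For Hoxd3, whose D10 difference missed the threshold after adjustment, the interval was 0.0015 to 0.66. For Hoxd12, with 10 to 18 counts per library at D10, the interval reached from -0.97 to 0.44.

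**Figure D3:**
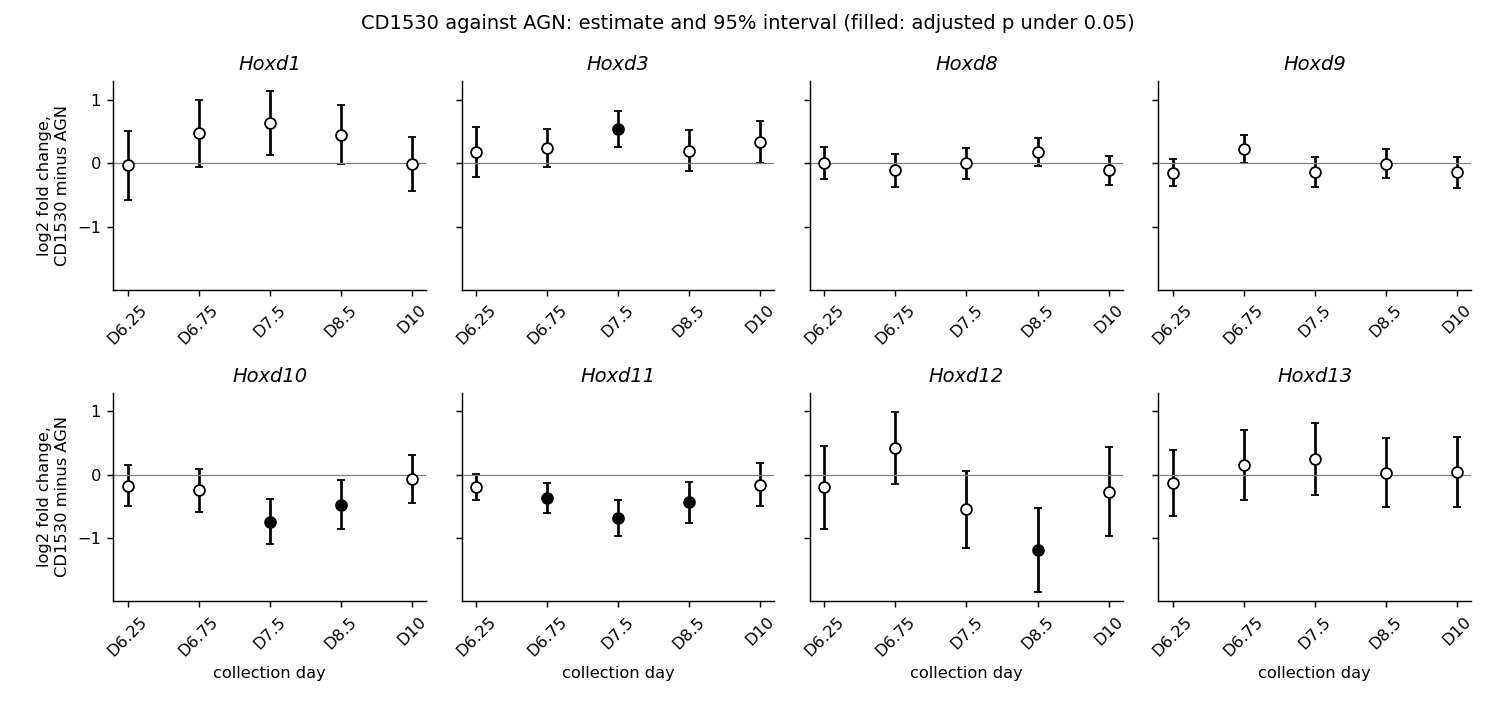
Log2 fold change of CD1530 against AGN (vertical axis, positive where CD1530 is higher) for each Hoxd gene at the 5 collection days; points are edgeR estimates, bars their 95% intervals, and filled points have an adjusted p under 0.05. Hoxd10 and Hoxd11 lie below 0 at D7.5 and D8.5, Hoxd3 lies above 0 at D7.5, and no point is filled at D6.25 or D10.

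The test of whether the ligand difference varied over the 5 time points (4 degrees of freedom) passed for 1 of 8 Hoxd genes, Hoxd12 (edgeR adjusted p 0.0305), where 48.8% of all genes passed. It was not passed for Hoxd11 (0.104) or Hoxd10 (0.121), nor for Hoxd3 (0.499) or Hoxd1 (0.268), so for these genes a ligand difference that comes and goes was not shown. The Hoxd12 call was lost without CD1530 replicate 3 at D6.75 (0.0809), AGN replicate 3 at D6.75 (0.0765), CD1530 replicate 1 (0.0606) or 3 (0.0839) at D8.5 or AGN replicate 1 at D8.5 (0.131).

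The same comparison gave other counts in the other 3 Hox clusters, which share the libraries. At D10, 9 of 11 Hoxa genes were called, 8 of them higher in CD1530, with all 10 Hoxb genes higher and 7 of 9 Hoxc genes higher. Of all genes, 46.6% were called at D10. The median differences were 1.23, 2.15 and 1.14, against -0.09 over the 8 Hoxd genes and -0.02 over all genes. At D8.5 the counts were 8 of 11, 10 of 10 and 7 of 9, against 3 of 8 Hoxd genes and 40.0% of all genes. The interaction with time passed for 7 of 11 Hoxa, 9 of 10 Hoxb and 8 of 9 Hoxc genes, against 1 of 8 Hoxd genes and 48.8% of all genes. Whether the clusters differed as groups was not tested.

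Set beside its paralogs at D10, the Hoxd gene had the difference nearest to 0 in all groups compared except 3 and 12, where Hoxb3 and Hoxc12 were nearer. In paralog group 1, Hoxb1 was at least 131-fold higher in CD1530, since all AGN libraries had at most 3 counts. Hoxd1, by contrast, had 3.21 ± 0.582 and 3.24 ± 0.0986 CPM. In group 3, Hoxa3 differed by 0.70 ± 0.08 and Hoxb3 by 0.31 ± 0.11, both called, with Hoxd3 at 0.33 ± 0.16. In group 8, Hoxb8 differed by 3.31 ± 0.12 and Hoxc8 by 1.25 ± 0.20, with Hoxd8 at -0.11 ± 0.11. In group 9, Hoxa9 (1.23 ± 0.24), Hoxb9 (1.98 ± 0.12) and Hoxc9 (2.16 ± 0.24) were each higher in CD1530, with Hoxd9 at -0.15 ± 0.12.

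The posterior groups were more mixed. Hoxa10 (0.54 ± 0.18) and Hoxc10 (0.74 ± 0.23) were called higher in CD1530, with Hoxd10 at -0.07 ± 0.19. Neither Hoxa11 (0.67 ± 0.36) nor Hoxc11 (0.82 ± 0.36) was called, nor was Hoxd11 (-0.15 ± 0.17), and Hoxc12 (-0.13 ± 0.40) was like Hoxd12 (-0.26 ± 0.35) in not being called. In group 13, Hoxa13 was lower in CD1530 (-1.93 ± 0.31), Hoxb13 (3.20 ± 0.53) and Hoxc13 (1.14 ± 0.29) were higher, and Hoxd13 was at 0.04 ± 0.27. Against PM at D10, Hoxd9 fell in both conditions, as did Hoxa9 (-0.83 ± 0.18 in CD1530 and -2.06 ± 0.21 in AGN), whereas Hoxb9 and Hoxc9 rose in CD1530 (1.01 ± 0.11 and 0.93 ± 0.20) and fell in AGN (-0.97 ± 0.14 and -1.23 ± 0.26).

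**Figure D4:**
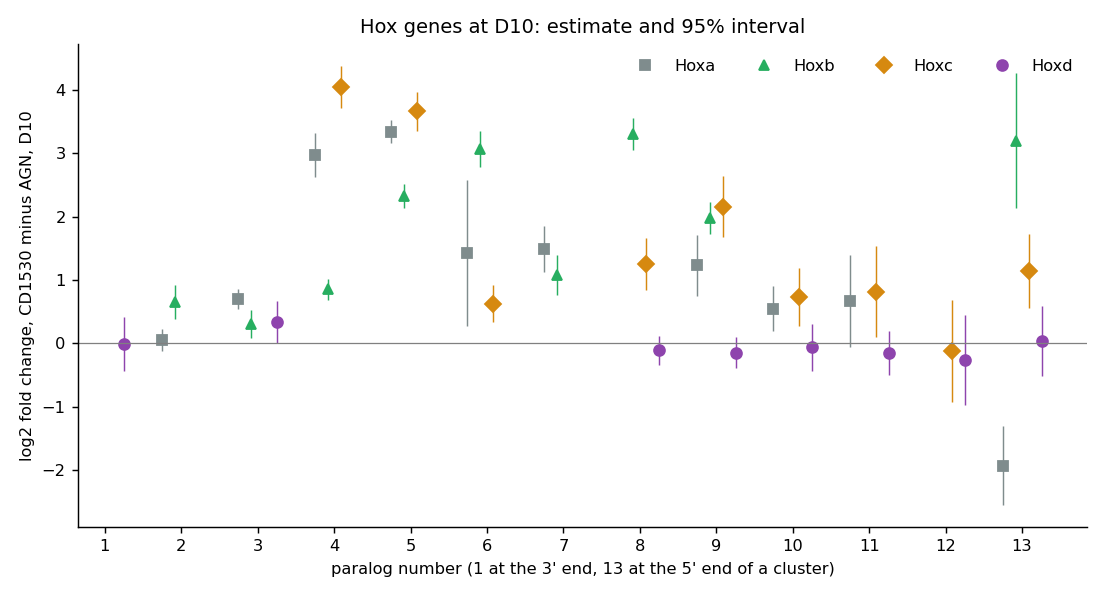
Log2 fold change of CD1530 against AGN at D10 (vertical axis, positive where CD1530 is higher) for Hox genes of the 4 clusters by paralog number (horizontal axis), with 95% intervals as bars; Hoxb1 is left out because its AGN libraries were at the counting floor. The Hoxd genes (circles) lie between -0.26 and 0.33, while Hoxb8 and Hoxb13 lie above 3.

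Genes listed as inputs to Hox genes did differ between the ligands in the same libraries. The list held Cdx1, Cdx2, Cdx4, T, Wnt3a, Fgf8 and Gdf11, and the retinoic acid genes Rara, Rarb, Rarg, Cyp26a1, Cyp26b1 and Dhrs3. Whether any of them acted on the Hoxd genes here was not tested. Of these 13 genes, 6 were called at D6.25, all higher in CD1530, where 1.92% of all genes were called. At D10, 11 were called, 8 higher and 3 lower, where 46.6% of all genes were. The retinoic acid target Rarb and the retinoic acid degrading enzymes Cyp26a1 and Cyp26b1 were higher in CD1530 at D6.25 (2.04 ± 0.33, 0.85 ± 0.05 and 1.46 ± 0.09) and at D10 (5.63 ± 0.14, 6.11 ± 0.08 and 2.44 ± 0.08). Cdx1, a homeodomain factor that acts on Hox promoters, had 33.4 ± 1.12 CPM in PM and 8.76 ± 0.94 in CD1530 at D10, at least 46.7-fold higher than in AGN at D10, where all libraries had at most 3 counts. The tail bud signal Fgf8 (-4.31 ± 0.25) was lower in CD1530 at D10, as was T, with 0.503 ± 0.140 CPM against 27.1 ± 0.542. Gdf11, a signal known to turn on posterior Hox genes, rose against PM in both conditions, by 1.91 ± 0.07 and 1.54 ± 0.08 at D10.

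Of 10 genes of the surrounding region tested between the ligands, the first called were 2 at D7.5 (Haglr and Agps), where 26.9% of all genes were called, followed by 1 at D8.5 (40.0%) and 3 at D10 (46.6%). Agps and Nfe2l2 lie outside the stretch from Lnpk (start 74520291) to Mtx2 (end 74878431), so they are not close neighbours of the cluster. Agps, an enzyme of ether lipid synthesis, was higher in CD1530 at D10 by 1.01 ± 0.06 and Nfe2l2, the oxidative stress regulator, by 0.47 ± 0.05, while Lnpk, which lies on the 5′ side beyond Evx2, was lower by -0.18 ± 0.06. Evx2 itself was not analysed here. Mtx2, on the 3′ side, differed by 0.16 ± 0.07 and missed the threshold (edgeR adjusted p 0.0706). Against PM, both Lnpk and Mtx2 rose by D10: Lnpk by 0.56 ± 0.06 in CD1530 and 0.74 ± 0.06 in AGN, and Mtx2 by 0.63 ± 0.07 and 0.48 ± 0.07.

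The genes most like each member, by Pearson correlation over the 11 group means of log2(CPM + 1), differed between members. They were Ptgds (0.975), Nrarp (0.960) and Gm39090 (0.957) for Hoxd11, and Adamts15 (0.983), Prkab2 (0.983) and Adamts18 (0.982) for Hoxd8. For Hoxd9 they were Gm17167 (0.969), Bhmt2 (0.965) and D230030E09Rik (0.964), and for Hoxd1 Macrod2 (0.976), Rgcc (0.969) and Icam1 (0.967). The remaining members had lower values, from 0.939 for 9930012K11Rik with Hoxd12 and 0.927 for Nfat5 with Hoxd13 to 0.898 for Mmp10 with Hoxd10. Within the cluster, Hoxd1 and Hoxd8 had 0.882 and Hoxd3 and Hoxd9 -0.921. The points share libraries and time, and these values describe likeness of shape only.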

How the data were processed

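RNA sequencing libraries from 33 cultures were grouped by the labels' condition and day. Per the methods and the processing notes, the authors aligned reads to GRCm38 with STAR and assigned them to genes with featureCounts, and the deposited values are raw counts per gene. The annotation release and the strand and overlap settings are not given in the sources used here. The main fit used edgeR 4.0.16 under R 4.3.3 (TMM, robust quasi-likelihood F test, 1 mean per group, all 33 libraries, no covariates). Benjamini-Hochberg adjustment covered all 17120 genes within each of 18 contrasts, and tests were two-sided. The filter on low counts removed no gene. An exact permutation test of 3 against 3 libraries cannot go below p = 0.1 and was not used. A group whose 3 libraries each had at most 3 counts was taken as at the counting floor, set per library, which covers counting error only. DESeq2 1.42.0 served as the other count test.

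No replicate columns held identical values, and the least different pair still had a chi-square of 1.59 per gene. Total counts had a median of 19899242. Exon lengths and overlaps came from GENCODE M21 and promoter windows from RefSeq. The genes named are the cluster, its neighbours, its inputs and its paralogs, and the 3 genes closest to each member in shape among those with a highest group mean of at least 1 CPM and a range of at least 1 on log2(CPM + 1). The members, lists and tests were chosen with earlier results of these data known. Alternatives were other scalings, filters and tests, fitting only the groups being compared, a block for the replicate number, other onset rules and each library left out. The values of 1 gene outside the Hoxd cluster are not reported here. Figures were drawn with matplotlib 3.10.9.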

Additional observations from a re-analysis of the deposited data

Results flagged for a closer look

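The ligand difference of Hoxd12 varied over the 5 time points (edgeR interaction, adjusted p 0.0305): it was 0.41 ± 0.28 at D6.75 and -1.18 ± 0.33 at D8.5, on 7 to 66 counts per library. Without AGN at D8.5 replicate 1, the adjusted p was 0.131.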

How the results depend on the processing

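The values varied were every Hoxd call and, called or not, the differences between ligands at D10. Uncalled values of other comparisons were not varied, so calls that they might gain were not looked for. Over these 70 Hoxd values and their 1001 alternatives, 955 kept their direction and their side of the threshold, 38 lost a call, 1 gained one and 7 changed sign. With the replicate block, the number of calls was 7 between ligands, 51 against PM, 3 for D10 against D8.5 and 1 for the interaction, as without it. Deviations of same-numbered replicates correlated at -0.29 to 0.12, with 1 of 51 pairs over 0.1, so the number was not taken to pair the samples. With 1 library left out, calls between ligands ran from 0 to 1 at D6.75, from 1 to 3 at D8.5 and from 0 to 2 for the interaction. A fit of the compared groups only, which has fewer samples, gave 0 calls at D6.75 and 1 at D10 (Hoxd3, adjusted p 0.0477). It also lost Hoxd11 between ligands at D8.5 (0.0528) and Hoxd13 in CD1530 at D10 against PM (0.0530). Scaling by library size only lost the latter (0.0778), Hoxd10 between ligands at D8.5 (0.0626) and Hoxd10 in CD1530 at D10 against D8.5 (0.103). The sign changes were all among the D10 differences between ligands, the only uncalled values that were varied. Hoxd1 was at 0.0198 with library size only. With 1 library left out Hoxd1 ran from -0.17 to 0.057, Hoxd10 from -0.15 to 0.10 and Hoxd13 from -0.28 to 0.29. The cause of these shifts was not tested. Scaling by library size only moved the median of all genes by up to -0.15 (AGN at D10 against PM). Low counts limit Hoxd12 most, with 3 to 66 per library.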
